A study of Homo sapiens with 6 samples.

Results

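RNA of the TNF ligand and receptor superfamilies was followed after knockdown of PRMT6, an arginine methyltransferase, in the human glioblastoma cell line U87. Members were taken by their symbols: every gene named TNFSF (ligand) or TNFRSF (receptor) followed by its family number, which gave 32 of the 60612 genes of the count table, 11 ligands and 21 receptors. The 6 RNA-seq libraries fell into 2 groups of 3. NC cells carried a scramble shRNA, and shPRMT6 cells carried an shRNA against PRMT6. The study delivered both shRNAs by lentivirus. Its methods describe puromycin selection of stable cells for the PRMT6 shRNA, and whether NC cells were selected in the same way was not stated. Which of the study's PRMT6 shRNAs was used for the libraries was not given in the sources used here, and effects of lower PRMT6 and off-target effects of the hairpin cannot be told apart.

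TNF superfamily ligands are mostly trimeric proteins of the cell surface, many of which are also shed, and they cluster their receptors on the same or a neighbouring cell. Receptors with a cytoplasmic death domain recruit TRADD or FADD and can start caspase activation, NF-kB signalling or both. Receptors without that domain bind TRAF adaptors and chiefly drive NF-kB and MAP kinase signalling, and decoy receptors bind ligand without passing on a full signal. Glioblastoma cells are known to carry death receptors for TRAIL, and several other members are known mainly from immune cells.

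Total gene counts were 56388161 to 75887696 per library, and 18106 genes passed the filter on low counts and were tested. PRMT6 itself was counted 522, 606 and 449 times in the NC libraries and 227, 282 and 355 times in the shPRMT6 libraries. Its level fell to 54.7% of NC (log2 fold change -0.87, SE 0.187, edgeR adjusted p = 0.0225), and the adjusted p was 0.0376 to 0.0713 when 1 library was left out. Of 7 glial and mesenchymal markers tested 2 passed, beside 18.6% of all genes tested. CHI3L1 rose (log2 fold change 1.62, SE 0.19, edgeR adjusted p = 0.00294) and so did SOX9 (0.63, SE 0.109, adjusted p = 0.0106). NES was higher without overlap at 38.3 to 42.9 and 45.1 to 45.7 CPM (adjusted p = 0.194). Groups did not overlap in 3 of the 7, beside 40.2% of all genes tested. The log2 fold change was above 0 in 5 of the 7 and below 0 in 2, VIM and CD44. VIM stood at 7090 to 8427 CPM (reads of a gene in every 1000000 counted) and CD44 at 455 to 651 CPM. Both overlapped between groups, with log2 fold changes of -0.11 (edgeR adjusted p = 0.356) and -0.12 (0.672). Other glial markers were near the floor: GFAP at 0.173 to 0.886 CPM and SOX2 at 0 to 0.408 CPM over the 6 libraries, and S100B had no count in any library. The 8 immune markers summed to 0.144 to 0.395 CPM in NC and 0.118 to 0.244 CPM in shPRMT6, and CD3E, MS4A1 and AIF1 had no count in any library. The 4 endothelial markers summed to 8.94 to 17.8 CPM and 16.6 to 17.6 CPM in the 2 groups, and KDR at 5.31 to 14.8 CPM made up most of the sum. PECAM1 was higher in every knockdown library (2.55 to 3.24 against 3.66 to 5.23 CPM, log2 fold change 0.70, edgeR adjusted p = 0.0544), VWF had 22, 0 and 4 against 47, 41 and 24 reads, and CDH5 had 4 or fewer. CDKN2A, lost from the U87 genome, had 2 reads in all 6 libraries together. Their part in the results was not tested. Because RNA of whole cultures was sequenced, fewer cells with a transcript and less of it per cell cannot be told apart.

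After knockdown of PRMT6, several of the more abundant receptors of the family, among them receptors of TRAIL and TNF, had less RNA, and a few less abundant members had more. TNFRSF21, TNFRSF10D, TNFRSF1B, TNFRSF10B and the ligand TNFSF9 fell, to between 35% and 66.5% of NC. TNFRSF25, TNFSF14 and TNFRSF11B rose, to between 155% and 315% of NC. Of the 32 members 21 could be tested and 8 passed an adjusted p under 0.05 in edgeR's quasi-likelihood test, which is 38.1% of those tested beside 18.6% of all genes tested. The 5 that fell are 23.8% beside a background of 9.06%, and the 3 that rose are 14.3% beside 9.51%. The family was chosen with earlier results of these data known, so these shares are descriptions. Calls thus went in both directions, and the median log2 fold change of the 21 was 0.09, beside -0.01 for all genes tested. Summed over the 32 members, the level was 844 to 875 CPM in NC and 576 to 618 CPM in shPRMT6, groups that did not overlap.

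Promoter sequences of 3 of the 5 members that fell are shown, each up to the first annotated exon base. TNFRSF10B and TNFRSF10D had no entry. Sequences are those of RefSeq on GRCh38.p14, read 5′ to 3′ on the gene's strand upstream of its start, and capitals mark matches to the GC box GGGCGG on either strand. Entries were matched for 21 of the 32 members.
TNFRSF21, chr6:47309906-47310155, minus strand: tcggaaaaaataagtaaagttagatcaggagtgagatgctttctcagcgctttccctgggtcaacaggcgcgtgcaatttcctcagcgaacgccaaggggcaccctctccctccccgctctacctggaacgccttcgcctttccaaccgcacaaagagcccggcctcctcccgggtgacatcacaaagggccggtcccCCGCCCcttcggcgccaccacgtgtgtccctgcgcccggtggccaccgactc
TNFRSF1B, chr1:12166741-12166942, plus strand: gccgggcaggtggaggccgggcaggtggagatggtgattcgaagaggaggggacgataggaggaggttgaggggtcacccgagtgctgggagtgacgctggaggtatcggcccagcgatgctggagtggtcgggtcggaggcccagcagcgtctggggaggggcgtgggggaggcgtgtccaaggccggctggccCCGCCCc
TNFSF9, chr19:6530776-6530998, plus strand: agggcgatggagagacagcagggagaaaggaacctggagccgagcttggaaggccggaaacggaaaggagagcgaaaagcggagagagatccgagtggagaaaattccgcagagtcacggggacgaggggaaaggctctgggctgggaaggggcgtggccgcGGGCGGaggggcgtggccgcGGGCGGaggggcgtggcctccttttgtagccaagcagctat
The 250 bases upstream of TNFRSF21 held 1 GC box, beginning 52 bases before the start. Upstream of TNFRSF1B 2 overlapping matches began 55 and 50 bases before the start, the latter running past the printed stretch. In TNFSF9 2 matches began at 88 and 68 bases before the start, and a TATAAA began 30 bases before it, in the last 3 printed bases, and ran on past them. Among 35116 RefSeq promoters of this length, 42.6% held a GC box and 10.7% a TATAAA on either strand, so these letters are common. CpG dinucleotides numbered 20 in TNFRSF21, 22 in TNFRSF1B, 23 in TNFSF9 and 26 in TNFRSF25, which rose, beside a median of 11 over all promoters. No match to an AP-1 site (TGANTCA) or to the NF-kB consensus lay in these 4 windows. The window of TNFSF14, which also rose, held 9 CpG, 1 AP-1 match and 2 NF-kB matches. Members that did not pass held such letters too, among them TNFRSF14 with 3 NF-kB matches and TNFRSF9 with 1 AP-1 and 2 NF-kB matches. AP-1 letters occurred in 6.57% and NF-kB letters in 9.96% of all promoters. These are matches of letters only.

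Levels between genes were compared per transcript length, as FPKM. TNFRSF12A, the receptor of the ligand TWEAK, had the highest mean in NC at 58.2 ± 7.55 FPKM (SD, n = 3), and its libraries overlapped those of TNFRSF10D at 52.9 ± 1.17 FPKM. TNFRSF10B followed at 36.4 ± 1.52 FPKM, apart from both neighbours. The TNF receptors TNFRSF1A and TNFRSF1B overlapped at 20.7 and 19.9 FPKM, and below them came TNFSF9 at 9.54 and TNFRSF21 at 6.04 FPKM, each apart from its neighbours. TNFRSF9 and TNFRSF25 overlapped at 2.66 and 2.57 FPKM. In all, 11 members reached a mean of 1 FPKM in NC and 12 in shPRMT6, the addition being TNFSF14, and 5 reached 10 FPKM in each group. Apart from TNFSF9 and TNFSF14, every member at 1 FPKM or more was a receptor. In shPRMT6 the order changed at the top: TNFRSF12A kept first place at 58.3 FPKM, while TNFRSF10B at 24.3 and TNFRSF10D at 23.8 FPKM came to lie side by side.

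**Figure D1:**
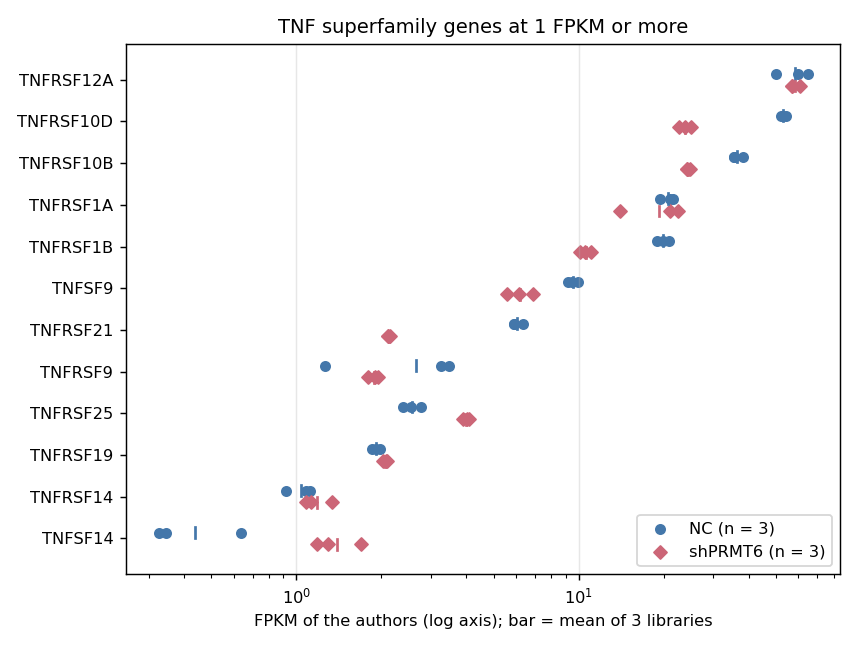
FPKM of each library (log axis) for the 12 members at a mean of 1 FPKM or more in either group, NC as circles and shPRMT6 as diamonds, with a bar at the mean of 3 libraries. TNFRSF12A sits at 58.2 and 58.3 FPKM in the 2 groups, while TNFRSF10D moves from 52.9 to 23.8 FPKM and TNFRSF21 from 6.04 to 2.13 FPKM.

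Among the 5 death domain receptors, all tested, 2 fell and 1 rose, beside 9.06% and 9.51% of all genes tested. So few genes do not set a role apart, here or in the roles below. TNFRSF21, also called DR6, a receptor studied in neurons and T cells, lies on chromosome 6 from 47231532 to 47309905 (GRCh38, minus strand). It stood at 25.4, 25.2 and 26.8 CPM in NC and at 9.11, 9.03 and 8.98 CPM in shPRMT6. The 3 knockdown libraries were nearly equal and all lay far under the lowest NC library. The log2 fold change was -1.51 (SE 0.0821, 95% interval -1.71 to -1.32, edgeR adjusted p = 0.000322), the largest fall of the family, and TNFRSF21 ranked 34 by p among all genes tested. The study shows TNFRSF21 in a heat map drawn from these same libraries, so its fall is not independent evidence.

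TNFRSF10B, the TRAIL death receptor DR5, stood at 214, 227 and 209 CPM in NC and at 143, 143 and 146 CPM in shPRMT6. It fell by 0.59 on the log2 scale (SE 0.0557, edgeR adjusted p = 0.00161), and the groups did not overlap. TNFRSF10A, DR4, the other death receptor for TRAIL, was barely counted: 42, 34 and 19 reads in NC and 44, 23 and 45 in shPRMT6. Its log2 fold change of 0.21 had an interval of -0.90 to 1.32, and in 16.6% of its exon bases it overlaps a gene on the other strand. Per transcript length, TNFRSF10A stood at 0.14 ± 0.0644 FPKM in NC and 0.164 ± 0.0517 FPKM in shPRMT6 (SD, n = 3 each), far below TNFRSF10B in both groups.

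TNFRSF1A, the death domain receptor of TNF, was at 93.6, 100 and 101 CPM in NC and at 107, 66.3 and 99.5 CPM in shPRMT6. Its log2 fold change was -0.12 (interval -0.53 to 0.30, edgeR adjusted p = 0.7), and the knockdown libraries were spread by the low second one, without which the value was 0.07. TNFRSF25, or DR3, receptor of the ligand TL1A, went the other way. Its levels were 13.1, 12.1 and 14 CPM in NC and 20.6, 20.4 and 19.6 CPM in shPRMT6, every knockdown library above every control. It rose by 0.63 on the log2 scale (SE 0.0924, interval 0.41 to 0.85, edgeR adjusted p = 0.00621). Its exons overlap ESPN on the other strand in 8.94% of their bases and PLEKHG5 on the same strand in 2.43%, and whether the counting used strand was not stated.

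Of the 4 decoy receptors 3 were tested, and TNFRSF10D and TNFRSF11B passed in opposite directions, beside 18.6% of all genes tested that passed. TNFRSF10D, or DcR2, binds TRAIL with a truncated death domain that cannot start caspase activation. It stood at 224, 228 and 216 CPM in NC and at 94.4, 105 and 99.6 CPM in shPRMT6, so that every knockdown library lay far below every control. The log2 fold change was -1.16 (SE 0.0617, interval -1.31 to -1.01, edgeR adjusted p = 0.000308). TNFRSF11B, osteoprotegerin, a secreted decoy for RANKL and TRAIL, was rare, with 26, 26 and 21 reads in NC and 81, 37 and 85 in shPRMT6. Its level rose from 0.381 ± 0.0727 to 1.04 ± 0.383 CPM (SD, n = 3 each), with a log2 fold change of 1.45 (SE 0.395, edgeR adjusted p = 0.0482). That call held without shPRMT6 replicate 2 (1.73, adjusted p = 0.0352) and was lost without each of the other 5 libraries, with an adjusted p of up to 0.146.

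TNFRSF10C, the decoy that lacks a cytoplasmic part, had 17, 21 and 1 reads in NC and 10, 26 and 16 in shPRMT6, with a log2 fold change of 0.45 and an interval of -1.77 to 2.66. Reads of this gene are uncertain, since 39.3% of its exon bases overlap another annotated gene and 31.9% of its 75-base stretches occur in another gene too. TNFRSF6B, the soluble decoy DcR3, was not tested, with 0, 16 and 1 reads in NC and 1, 0 and 0 in shPRMT6, and every 75-base stretch of it also belongs to the readthrough gene RTEL1-TNFRSF6B.

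All 4 TRAIL receptors lie within 205 kb on chromosome 8, in the order TNFRSF10B (23020133 to 23069179), TNFRSF10C (23102590 to 23117437), TNFRSF10D (23135588 to 23164030) and TNFRSF10A (23190452 to 23225126). Their FPKM summed to 88.8, 92.6 and 87.4 in NC and to 47, 49.5 and 49 in shPRMT6. Within each library TNFRSF10D was divided by TNFRSF10B, a comparison chosen after the values were seen, as were the other ratios. The ratio was 1.48, 1.42 and 1.47 in NC and 0.935, 1.04 and 0.964 in shPRMT6: the decoy exceeded the death receptor in every control and was about level with it after knockdown. Between TNFRSF1B and TNFRSF1A the ratio went from 1.02, 0.906 and 0.969 to 0.491, 0.722 and 0.501. The ratio of TNFSF9 to its receptor TNFRSF9, overlapped at 3.07, 7.3 and 2.73 in NC and 2.93, 3.82 and 3.15 in shPRMT6. With 3 libraries against 3, an exact two-sided permutation test cannot go below 0.1, and these ratios are given as descriptions.

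**Figure D2:**
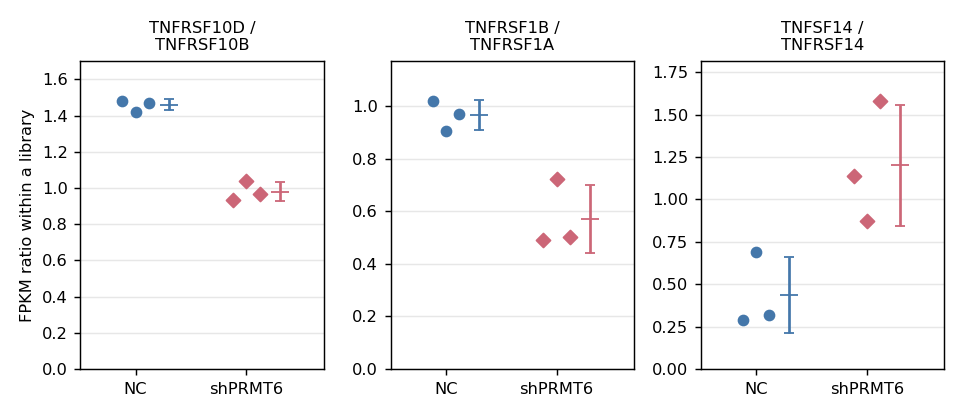
Ratio of FPKM within each library for the 3 of 4 pairs of members whose groups did not overlap, NC as circles and shPRMT6 as diamonds, each panel with its own linear axis from 0 and the mean ± SD of 3 libraries beside the points. TNFRSF10D over TNFRSF10B goes from 1.46 ± 0.0312 to 0.979 ± 0.0539, TNFRSF1B over TNFRSF1A from 0.966 ± 0.058 to 0.571 ± 0.131, and TNFSF14 over TNFRSF14 from 0.434 ± 0.224 to 1.2 ± 0.355.

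Of the 12 receptors that signal through TRAFs, 7 were tested and 1 passed, a fall, beside 18.6% of all genes tested that passed. TNFRSF1B, the TNF receptor that is strongest on immune cells and binds membrane TNF well, was at 90, 85.5 and 92.8 CPM in NC and at 49.4, 45 and 46.9 CPM in shPRMT6. The groups lay far apart beside their spread. Its log2 fold change was -0.92 (SE 0.0674, interval -1.09 to -0.76, edgeR adjusted p = 0.000789), or 52.7% of NC. Its neighbour 22.8 kb away on chromosome 1, TNFRSF8 (CD30), was at 0.605 to 1.02 CPM in NC and 0.552 to 0.723 CPM in shPRMT6, with a log2 fold change of -0.27.

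TNFRSF12A, known as Fn14, stood at 140, 107 and 127 CPM in NC and at 130, 121 and 121 CPM in shPRMT6. Its log2 fold change of -0.01 had an interval of -0.26 to 0.24 (edgeR adjusted p = 0.97), and its sign turned in 8 of 15 alternative fits. TNFRSF19, or TROY, a receptor of the developing nervous system, was at 11.7, 12.1 and 11.2 CPM in NC and at 12.6, 12.7 and 12.2 CPM in shPRMT6. Every knockdown library was above every control by a small margin, and the log2 fold change of 0.10 (SE 0.09, edgeR adjusted p = 0.509) did not pass. TNFRSF9, the costimulatory receptor 4-1BB, was at 24.8, 9.5 and 26 CPM in NC and at 14.3, 13.5 and 14.6 CPM in shPRMT6. One control library was low and the other two were above every knockdown library. The log2 fold change was -0.51 (SE 0.354, edgeR adjusted p = 0.38), and without NC replicate 2 it was -0.84 (adjusted p = 0.00492). TNFRSF14, or HVEM, the receptor of the ligand LIGHT, overlapped between groups at 6.85 to 8.4 and 7.99 to 9.94 CPM, with a log2 fold change of 0.18 and an interval of -0.16 to 0.52, and 13.4% of its exon bases overlap a gene on the other strand. TNFRSF11A, the RANKL receptor, also overlapped, at 2.06 to 4.18 and 2.91 to 4.16 CPM.

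The other 5 receptors of this role were not tested. TNFRSF4 (OX40), TNFRSF13B (TACI) and TNFRSF18 (GITR), known from lymphocytes, had no read in any library, which allows up to 0.0395 to 0.0532 CPM per library at a floor of 3 counts. TNFRSF13C (BAFF receptor) had 0, 31 and 12 reads in NC and 4, 0 and 0 in shPRMT6, and TNFRSF17 (BCMA) had 4 reads in 1 shPRMT6 library and none elsewhere. These counts cover sampling error only and do not show that a gene was off.

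Ligands named TNFSF were scarce: 6 of 11 were tested, and TNFSF9 fell while TNFSF14 rose, beside 18.6% of all genes tested that passed. TNFSF9, the ligand of 4-1BB, had the highest level of the 11 ligands named TNFSF, at 19.5, 17.8 and 18.2 CPM in NC and at 10.7, 13.3 and 11.8 CPM in shPRMT6. The groups did not overlap, and the log2 fold change was -0.63 (SE 0.11, interval -0.90 to -0.37, edgeR adjusted p = 0.0109). TNFSF14, or LIGHT, which binds TNFRSF14 and the lymphotoxin beta receptor, was at 1.88, 3.63 and 1.95 CPM in NC and at 7.29, 6.66 and 9.61 CPM in shPRMT6. It rose by 1.65 on the log2 scale (SE 0.304, interval 0.93 to 2.38, edgeR adjusted p = 0.0133), from a control group in which replicate 2 stood apart. Without NC replicate 3 the value was 1.51 and the adjusted p 0.052, and without NC replicate 2 it was 2.03 with an adjusted p of 0.00539. Since TNFRSF14 overlapped between groups, the ratio of TNFSF14 to TNFRSF14 was 0.291, 0.691 and 0.319 in NC and 1.14, 0.875 and 1.58 in shPRMT6.

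TNFSF9 and TNFSF14 lie 125 kb apart on chromosome 19, at 6530999 to 6535928 and 6661253 to 6670588, on opposite strands, with CD70, the ligand of CD27, between them. In this stretch TNFSF9 and CD70 fell and TNFSF14 rose. Per transcript length, CD70 had a mean of 18.8 FPKM in NC, above TNFSF9 at 9.54 FPKM. CD70 was at 37.2, 31.8 and 33.8 CPM in NC and at 28.1, 25.4 and 24.2 CPM in shPRMT6, a log2 fold change of -0.40 (SE 0.0976, edgeR adjusted p = 0.0333), and its adjusted p reached 0.112 when 1 library was left out, the call being lost in 5 of 6 such fits.

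TNFSF10, which is TRAIL, and TNFSF4, the OX40 ligand, passed only an unadjusted p under 0.05. TNFSF10 had 8, 0 and 0 reads in NC and 19, 28 and 54 in shPRMT6, and its fitted log2 fold change of 3.49 (interval 0.39 to 6.58, edgeR adjusted p = 0.115) rests on a near-empty control group. Without NC replicate 1, the library with all of the control reads, the adjusted p was 0.0253. TNFSF4 had 19, 23 and 12 reads in NC and 55, 29 and 36 in shPRMT6, with a log2 fold change of 1.16 (SE 0.433, edgeR adjusted p = 0.118). The knockdown libraries of both genes were above every control, and DESeq2 called both. TNFSF13B (BAFF) and TNFSF13 (APRIL), survival factors of B cells, had log2 fold changes of 0.32 and -0.22 with overlapping groups, and 45.2% of the 75-base stretches of TNFSF13 are shared, with the readthrough gene TNFSF12-TNFSF13 among the sources. Of the 5 ligands not tested, TNFSF8, TNFSF11, TNFSF12 and TNFSF18 had at most 16 reads in any library. TNFSF15 (TL1A) had 4, 4 and 3 reads in NC and 8, 4 and 73 in shPRMT6, so that 1 library held nearly all of them.

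**Figure D3:**
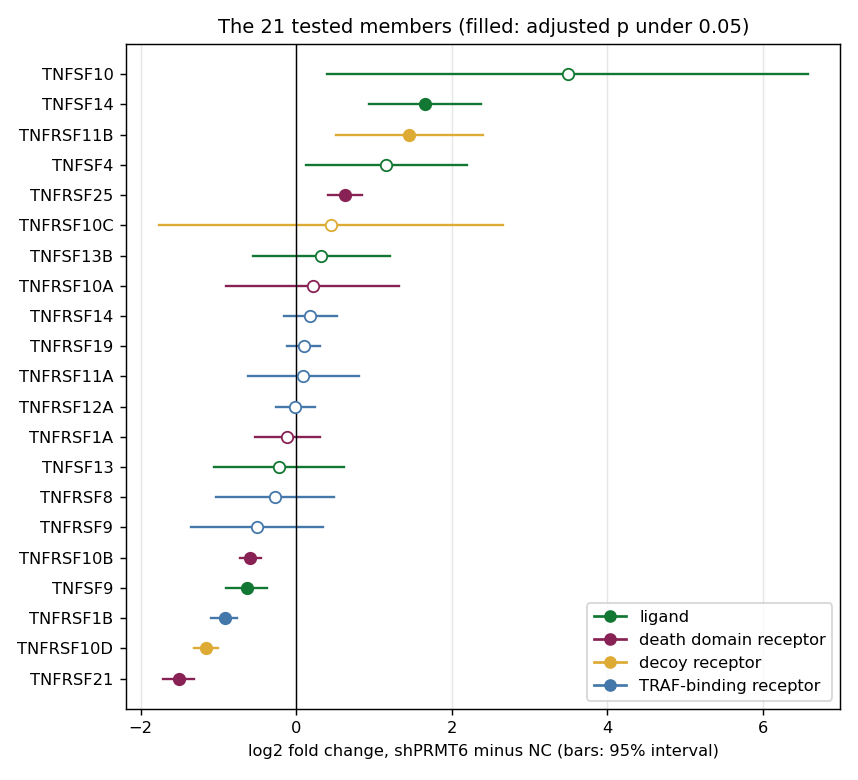
Log2 fold change (shPRMT6 minus NC) with its 95% interval for the 21 members tested, coloured by role, filled where edgeR's adjusted p is under 0.05. Values run from -1.51 for TNFRSF21 to 3.49 for TNFSF10, whose interval reaches from 0.39 to 6.58, and the 8 filled points are 5 below and 3 above 0.

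Across the family, the 3 libraries of one group lay outside the range of the other for 11 of the 21 tested members, 52.4% beside 40.2% of all genes tested. Of these 6 were higher and 5 lower after knockdown, and all 8 members called were among them. At the cut named in the study's methods, an absolute log2 fold change above 1 with an unadjusted p under 0.05, 6 members passed beside 5.92% of all genes tested. These were TNFRSF21, TNFRSF10D, TNFSF14, TNFRSF11B, TNFSF10 and TNFSF4, so that this cut leaves out TNFRSF1B, TNFRSF10B, TNFSF9 and TNFRSF25 and takes in both members that failed adjustment. By role, the median log2 fold change was -0.12 over the 5 death domain receptors, 0.45 over the 3 decoys, -0.01 over the 7 TRAF-binding receptors and 0.74 over the 6 ligands tested. Among these ligands TNFSF14 passed as higher and TNFSF9 as lower, and the values of TNFSF10 and TNFSF4 rest on few reads.

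**Figure D4:**
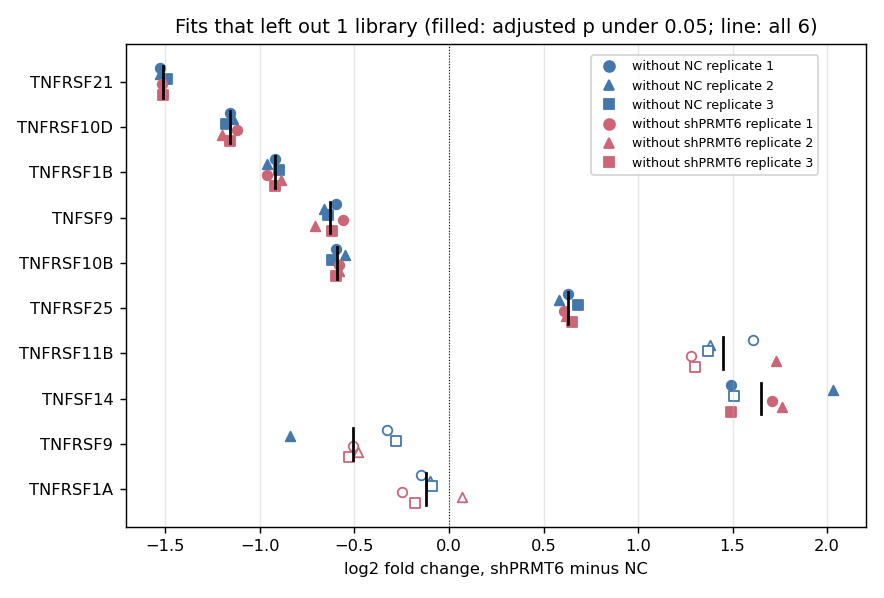
Log2 fold change (shPRMT6 minus NC) of 10 members in fits that left out 1 library, NC in blue and shPRMT6 in red with a shape for each replicate, filled where the adjusted p is under 0.05, and a line at the value from all 6. The first 6 members are filled in every fit, TNFRSF11B only at 1.73, TNFSF14 in every fit but the one at 1.51, and TNFRSF9 only at -0.84.

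The rest of the superfamily goes by other symbols, and 1 of its 8 tested genes, CD70, passed (12.5%, beside 18.6% of all genes tested). TNF itself had 70, 68 and 114 reads in NC and 115, 133 and 143 in shPRMT6, with a log2 fold change of 0.61 (edgeR adjusted p = 0.205). CD40 had a log2 fold change of -0.96 (adjusted p = 0.0792), FAS of 0.18 (0.614) and LTBR, the lymphotoxin beta receptor, of 0.18 (0.368). The groups of CD40 did not overlap, at 2.96 to 4.36 CPM in NC and 1.38 to 2.64 CPM in shPRMT6. Of the 8 genes 3 had groups that did not overlap, all lower (37.5%, beside 40.2% of all genes tested). LTA, LTB, FASLG, CD40LG and EDAR had no read in any library. In the 35 tested genes that carry the receptors' signal or process the ligands, 3 rose and none fell in edgeR's test, with a median log2 fold change of 0.13. The 3 are 8.57%, near the 9.51% of all genes tested that rose. At an unadjusted p under 0.05 the count was 10 higher and 3 lower, 37.1% beside 32.6% of all genes tested, and DESeq2 called 10 higher and 3 lower. CYLD, a deubiquitinase that restrains NF-kB signalling, went from 79, 114 and 79.7 CPM to 157, 160 and 162 CPM, a log2 fold change of 0.81 (SE 0.148, edgeR adjusted p = 0.0128). MLKL, the effector of necroptosis, rose by 0.60 (adjusted p = 0.038), while RIPK3, the kinase that acts on it, had no read in any library. FURIN, a protease that cleaves ligand precursors, rose by 0.24 (adjusted p = 0.0467), a call lost in each fit that left out 1 library. MLKL lost its call in 4 of these 6 fits, and CYLD kept it in all 6.

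Genes that NF-kB is known to induce fell in greater number: 15 of 22 tested (68.2%, beside a background of 9.06% lower), with none higher at an unadjusted p under 0.05 or in DESeq2 either, and a median log2 fold change of -0.57. This list was chosen with earlier results of these data known, so its shares beside all genes are descriptions only. CXCL8, the chemokine interleukin-8, went from 2457, 2263 and 2201 CPM to 1236, 1177 and 1152 CPM, a log2 fold change of -0.96 (SE 0.0591, edgeR adjusted p = 0.000504). TNFAIP3, which encodes the feedback inhibitor A20, went from 50.6, 50.8 and 47.2 CPM to 29.3, 29.6 and 29.7 CPM (-0.75, adjusted p = 0.00149). NFKBIA, the inhibitor IkB alpha, fell by 0.58 on the log2 scale (adjusted p = 0.00196), and SOD2, the mitochondrial superoxide dismutase, by 0.72 (adjusted p = 0.00205). Groups did not overlap in 17 of the 22 (77.3%, beside 40.2% of all genes tested), all lower. Summed over the list, the level was 4297 to 4597 CPM in NC and 2612 to 2748 CPM in shPRMT6. TRAF1 and BIRC3 stand in both this list and the signalling list, and neither passed. Whether the fall of these genes has to do with the receptors was not tested.

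**Figure D5:**
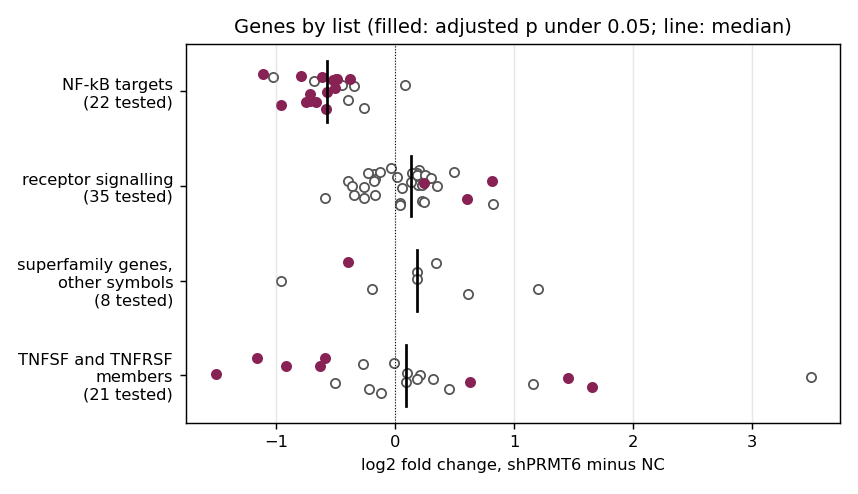
Log2 fold change (shPRMT6 minus NC) of each tested gene in 4 lists, filled where edgeR's adjusted p is under 0.05, with a line at the list's median and points spread vertically for sight only. The medians are 0.09 for the 21 members, 0.18 for 8 superfamily genes with other symbols, 0.13 for 35 signalling genes and -0.57 for 22 NF-kB targets, where 15 filled points all lie below 0.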

How the data were processed

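RNA-seq of total RNA from 6 U87 samples (3 NC, 3 shPRMT6) was analysed from 1 table of the whole series. The authors deposited raw read counts per gene and, beside them, FPKM values. Per the labels, reads were aligned with HISAT2 to GRCh38 and counted with HTSeq 0.13.5, while annotation, strand and counting mode were not given in the sources used here. Symbols came from a table of gene IDs and from GENCODE 29 (42207 of 60612 IDs). The members and lists were chosen with earlier results of these data known. Every member was accounted for; library values were given for members called, at a mean of 10 CPM or without overlap, and others by counts or range, and from each list at most the 4 smallest p per direction, with further genes named after their values were seen.

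Counts were tested with edgeR 4.0.16 in R 4.3.3: filterByExpr, TMM scaling (factors 0.992 to 1.01), glmQLFit and glmQLFTest, two-sided, with Benjamini-Hochberg adjustment over 18106 genes. CPM was computed for every gene of the table, dividing by the counts of the genes that passed the filter times the TMM factor of the library. Floors were divided by total counts without scaling factors. Intervals are the log2 fold change with its SE at 95%. Alternatives used DESeq2 1.42.0, limma 3.58.1 on log2(FPKM + 1) and log2(FPKM + 0.1), other scalings and filters, a replicate block, and leaving out each library; 2 further units for overlap and the ratios were added after the data were seen. Replicates of a group were compared by a chi-square test of their counts, whose statistic was 48.2 to 78.4 times its degrees of freedom, so all were kept as separate samples. The study describes 3 independent replicates, and p-values measure the spread between these libraries. Uncertainty from shared reads was read from GENCODE 29 exons and 75-base stretches. Floors and counts cover sampling error only, and reads had no molecular identifiers.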

Additional observations from a re-analysis of the deposited data

How the results depend on the processing

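Of the 8 members called, TNFRSF21, TNFRSF10D, TNFRSF1B, TNFRSF10B and TNFRSF25 passed under every alternative fit, and these 5 were also the calls of limma on log2(FPKM + 1) with no filter. A stricter adjusted p under 0.01 left 5 members as well. Fits that left out 1 library gave 6 to 8 members, and DESeq2 gave 10, adding TNFSF10 and TNFSF4 (adjusted p for TNFSF4 0.0422). Over all genes, 3362 calls became 5782 with DESeq2, 1073 with limma without filter, 1320 at an adjusted p under 0.01, 1072 at the cut of the study's methods and 1755 to 3183 without 1 library, falling furthest to 1939 (NC replicate 3 left out) and 1871, 1755 and 1858 (each knockdown library left out, in the order of their numbers). The receptor signalling list went from 3 calls to 13 with DESeq2, to 0 with limma without filter, 0 at an adjusted p under 0.01 and 0 at the methods' cut, and to 1 (without shPRMT6 replicate 2) to 3 without 1 library. The NF-kB target list went from 15 to 7 with limma without filter, 1 at the methods' cut and 12 to 14 without 1 library. Superfamily genes with other symbols went from 1 to 2 with DESeq2, and to 0 with a filter of at least 1 count in any library, with limma without filter, at an adjusted p under 0.01 and at the methods' cut, and to 0 to 1 without 1 library. The causes were not tested.

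Whether replicate numbers pair the samples was not given in the sources used here. Deviations of same-numbered libraries from their group means correlated at -0.025, -0.017 and -0.03, and those of other pairs at -0.019 to 0.045. These values show no shared deviation and cannot tell how the samples were prepared. A fit with the replicate block gave 6 members (TNFRSF11B and TNFSF9 lost), 1858 genes, 1 signalling gene, 14 NF-kB targets and 1 gene with another symbol, which was CD40 (adjusted p = 0.0492) in place of CD70 (0.0563). The call of PRMT6 was lost as well (0.0803).

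Signs turned only in members that did not pass. TNFRSF12A was at 0.00 with the replicate block, 0.01 in all 3 limma fits and -0.11 to 0.08 without 1 library. Without 1 library, TNFRSF1A ranged from -0.25 to 0.07, TNFSF13B from -0.05 to 0.57, TNFRSF10A from -0.05 to 0.61, TNFRSF11A from -0.16 to 0.28, TNFSF13 from -0.49 to 0.04 and TNFRSF10C from -0.09 to 0.87. The non-overlap count was 11 with CPM and with FPKM. The 11 members not tested each had 73 reads or fewer per library.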
